A study of Mus musculus with 2 samples.

Results

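The genes described here are the 7 that encode interleukin 12 (IL-12), its receptor, interferon gamma (IFN-γ) and its receptor: Il12b, Il12a, Il12rb1, Il12rb2, Ifng, Ifngr1 and Ifngr2. They were picked by gene symbol from the 32285 genes counted, with earlier values of these libraries known, so every level and ratio below is a description. The libraries come from subcutaneous tumours of 4T1, a mouse mammary carcinoma line, 1 from mice that received AIE COF phototherapy, in which a covalent organic framework preparation is combined with light, and 1 from mice given PBS. Tumours were taken on day 7 after phototherapy and made into cell suspensions, and 3′ ends of transcripts were counted in single cells as unique molecular identifiers (UMIs). The strain is spelled C57BL/c, which was not resolved, and the sources used here do not give how many animals were pooled. The labels give the cell type as 4T1, although both suspensions held lymphocytes and myeloid cells.

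IL-12 is made by activated dendritic cells and macrophages as a pair of chains, p40 from Il12b and p35 from Il12a, and p40 can also pair with the Il23a chain to form IL-23. Its receptor, built from the products of Il12rb1 and Il12rb2, signals through Tyk2, Jak2 and Stat4 in T and NK cells and drives production of IFN-γ. IFN-γ in turn binds the Ifngr1 and Ifngr2 chains, which act through Jak1 and Jak2 to induce antigen presentation genes, guanylate-binding proteins and the chemokine Cxcl9.

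The proximal promoters of 4 of these genes are printed because Il12b and Ifng had most of their UMIs in few classes of cells below while Ifngr1 and Ifngr2 were widespread, and the windows differ in composition. Each run is the 250 bases before the RefSeq transcription start, 5′ to 3′ on the gene's strand, on GRCm38.p6. They lie at chr11:44399813-44400062 for Il12b, chr10:118440796-118441045 for Ifng, chr10:19591699-19591948 for Ifngr1 and chr16:91546809-91547058 for Ifngr2, all on the plus strand. Capitals mark matches on either strand to 4 letter patterns. The boxes that position the start are the patterns TATAAA and, in a longer form, TATATAA. The pattern GGGCGG is a GC box and appears as CCGCCC when it lies on the other strand. The STAT-type element is searched as TTCNNNGAA.
Il12b: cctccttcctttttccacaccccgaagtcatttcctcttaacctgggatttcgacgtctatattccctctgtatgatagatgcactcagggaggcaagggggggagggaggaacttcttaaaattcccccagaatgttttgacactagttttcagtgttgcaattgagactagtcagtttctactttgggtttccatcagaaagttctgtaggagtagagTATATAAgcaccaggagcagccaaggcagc
Ifng: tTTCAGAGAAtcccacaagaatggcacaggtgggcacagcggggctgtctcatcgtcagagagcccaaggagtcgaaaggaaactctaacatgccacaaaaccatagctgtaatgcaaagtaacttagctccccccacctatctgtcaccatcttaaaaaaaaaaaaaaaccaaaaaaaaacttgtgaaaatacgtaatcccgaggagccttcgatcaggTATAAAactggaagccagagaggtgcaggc
Ifngr1: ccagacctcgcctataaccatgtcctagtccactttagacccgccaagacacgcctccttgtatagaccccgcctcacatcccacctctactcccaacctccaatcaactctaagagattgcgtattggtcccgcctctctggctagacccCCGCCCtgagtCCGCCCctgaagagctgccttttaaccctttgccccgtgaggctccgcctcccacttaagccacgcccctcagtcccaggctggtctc
Ifngr2: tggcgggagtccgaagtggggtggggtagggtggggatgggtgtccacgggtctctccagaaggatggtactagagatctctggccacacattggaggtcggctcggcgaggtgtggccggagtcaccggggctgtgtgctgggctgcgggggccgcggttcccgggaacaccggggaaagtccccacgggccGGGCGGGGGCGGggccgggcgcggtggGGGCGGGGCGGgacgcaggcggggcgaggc
The match to TATATAA in Il12b and the match to TATAAA in Ifng both begin 30 bases before the start. Of 32526 promoter windows of this length, 3.02% hold TATATAA, 12.3% TATAAA, 33.0% GGGCGG and 7.04% TTCNNNGAA. Ifng has 1 match to TTCNNNGAA, 249 bases before its start. The Il12rb2 window, not printed, also has 1, at 123 bases, and matches none of the other patterns. Of the 2 Il12a starts, also not printed, start 1 matches no pattern and start 2 has 1 GC box. Ifngr1 has 2 GC boxes and Ifngr2 has 4, of which one pair overlaps by a base, while the Il12b and Ifng windows have none. The GC content was 46.0% for Il12b, 45.2% for Ifng, 59.2% for Ifngr1 and 74.0% for Ifngr2, and the windows held 3, 6, 11 and 25 CpG dinucleotides, against medians of 52.4% and 6 over all windows. A match is a letter pattern only, and binding was not measured.

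The treated library kept 8619 of 10002 barcodes and the PBS library 7864 of 8962, with medians of 3880 and 6380 UMIs per cell. Clusters were named from marker genes, and "-like" in a name means that alone. No sample was replicated, so no test or p-value is given: levels are in CPM, a gene's UMIs relative to all UMIs of the class, scaled to the same fixed total in every class, with exact Poisson intervals, and ratios are treated over PBS with exact conditional binomial intervals, both at 95% and covering counting error only. The 5 clusters called Ptprc-low here had little Ptprc, which encodes the pan-leukocyte antigen CD45, were rich in RNA and held 77.4% of treated and 82.7% of PBS UMIs. They carried Hmga2 at 382 and 352 CPM but the epithelial gene Epcam at 0.52 and 0.56 CPM, so no cell type is given to them. The suspensions shared 39 barcode sequences.

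Over all retained cells, Il12b was the only 1 of the 7 genes at least 1.5-fold apart between the libraries. Its treated level was 4.76 CPM (4.35 to 5.21) and its PBS level 1.67 CPM (1.45 to 1.91), a log2 ratio of 1.51 (1.28 to 1.75). Of all 15637 genes with 50 or more UMIs, 8.61% were that much higher and 4.94% that much lower in the treated library. Ifng went the other way, at 3.83 CPM (3.46 to 4.23) and 4.72 CPM (4.35 to 5.12), a log2 ratio of -0.30 (-0.49 to -0.11). None of the receptor chains was 1.5-fold apart. The log2 ratio was -0.32 (-0.38 to -0.26) for Il12rb1, -0.33 (-0.49 to -0.18) for Il12rb2, -0.15 (-0.19 to -0.11) for Ifngr1 and 0.22 (0.15 to 0.29) for Ifngr2. Il12a was scarce, with 32 UMIs in all treated cells and 30 in all PBS cells, at a log2 ratio of 0.41 (-0.36 to 1.18).

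The mix of cells differed between the suspensions, and holding it equal changed the sign of 3 of the 7 ratios. Each class level was weighted by the mean share of UMIs that its class had in the pair of libraries, over 24 classes. The log2 ratio of Ifng then went from -0.30 to 0.34, that of Ifngr2 from 0.22 to -0.13 and that of Il12a from 0.41 to -0.25. Il12b kept its sign at 0.59, as did Il12rb1 (-0.17), Il12rb2 (-0.29) and Ifngr1 (-0.19). The held value of Il12b includes a single treated cell with 219 of that library's 486 UMIs. No held value without that cell is given, and the ratio of its class changes sign without it, as described below. Whether the sign of the held Il12b ratio depends on that cell was therefore not tested.

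**Figure D1:**
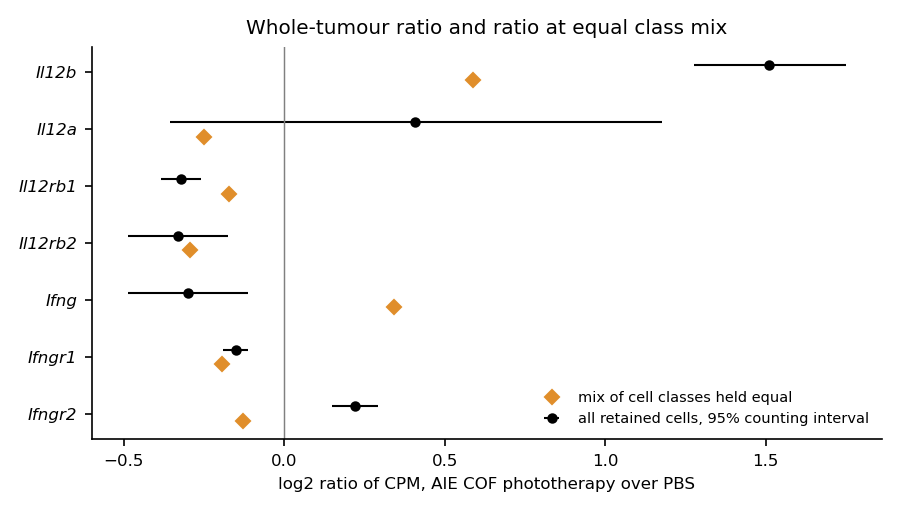
Log2 ratio of CPM, AIE COF phototherapy over PBS, for the 7 genes: black circles are all retained cells with 95% counting intervals, orange diamonds the ratio with the mix of cell classes held equal. Ifng, Ifngr2 and Il12a have their pair of points on opposite sides of 0, and Il12b lies to the right at 1.51 and 0.59. Both Il12b points include a single treated cell with 219 UMIs of the gene.

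Il12b, the p40 gene (chromosome 11, 44400063 to 44414033, plus strand, GRCm38), was found in very few cells, each of which could hold many UMIs. It had a UMI in 42 of 8619 treated cells (0.487%) and 28 of 7864 PBS cells (0.356%). Of these, 22 treated and 19 PBS cells had a single UMI. Cells with at least 2 numbered 20 and 9, and cells with at least 5 numbered 14 and 8. The highest 3 treated cells held 219, 98 and 27 UMIs, or 70.8% of the library's total of 486, and the highest 3 PBS cells held 81, 32 and 25, or 65.1% of 212. The whole-tumour ratio therefore rests on a handful of cells. Without the highest treated cell alone its log2 value was 0.65, without the highest PBS cell alone 2.21, and without the highest cell of both libraries 1.34.

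Dendritic-like cells held most of the treated Il12b and a smaller part of the PBS Il12b. Mature-dendritic-like cells, which carry the migration gene Ccr7 and the actin bundler Fscn1, had Il12b in 17 of 48 treated cells (35.4%) and 6 of 22 PBS cells (27.3%). Their totals were 206 and 47 UMIs, or 1060 CPM (920 to 1215) and 653 CPM (480 to 868). That class is below the 50 cells per library set as a minimum for comparing levels, and its log2 ratio of 0.70 became -0.19 without its highest treated cell. Conventional-dendritic-like cells had Il12b in 5 of 121 treated and 4 of 121 PBS cells, with 236 and 28 UMIs. Of the 236 treated UMIs, 219 lay in a single cell, and without that cell the log2 ratio went from 3.10 to -0.68. Both classes together carried Il12b in 22 of 169 treated and 10 of 143 PBS cells, and in 7.43% and 2.27% after thinning each cell to 1000 UMIs. They held 90.9% of the treated and 35.4% of the PBS UMIs of the gene.

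Most of the remaining PBS Il12b lay in 2 cells outside the dendritic-like classes. A cell of macrophage-like cluster 2 held 81 UMIs of Il12b beside 27 of the complement gene C1qa and 167 of Apoe. A cell of cluster 5 held 32 beside 43 of Ccr7, 9 of the chemokine Ccl22, 10 of Apoe, 3 of C1qa and none of Fscn1. Cluster 5, led by Cxcl2 and Chil3, met macrophage and monocyte markers alike and has no name. In macrophage-like cluster 2 the totals were 21 treated and 91 PBS UMIs, each from 3 cells. The 219-UMI treated cell clustered with the conventional class and carried the mature dendritic genes Ccr7 (10 UMIs), Ccl22 (7) and Cd40 (8). Of the conventional dendritic genes it had 3 UMIs of Wdfy4 and none of Xcr1, Clec9a, Flt3, Zbtb46 or Cd209a. B-like, CD8-effector-like and NK-like cells had no Il12b UMI in either library, which allows up to 0.384% of treated and 0.990% of PBS B-like cells to show a UMI at a depth of 1000 UMIs and sets no limit on how many express the gene. Ptprc-low cells had 9 and 10 UMIs, 1 to a cell.

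**Figure D2:**
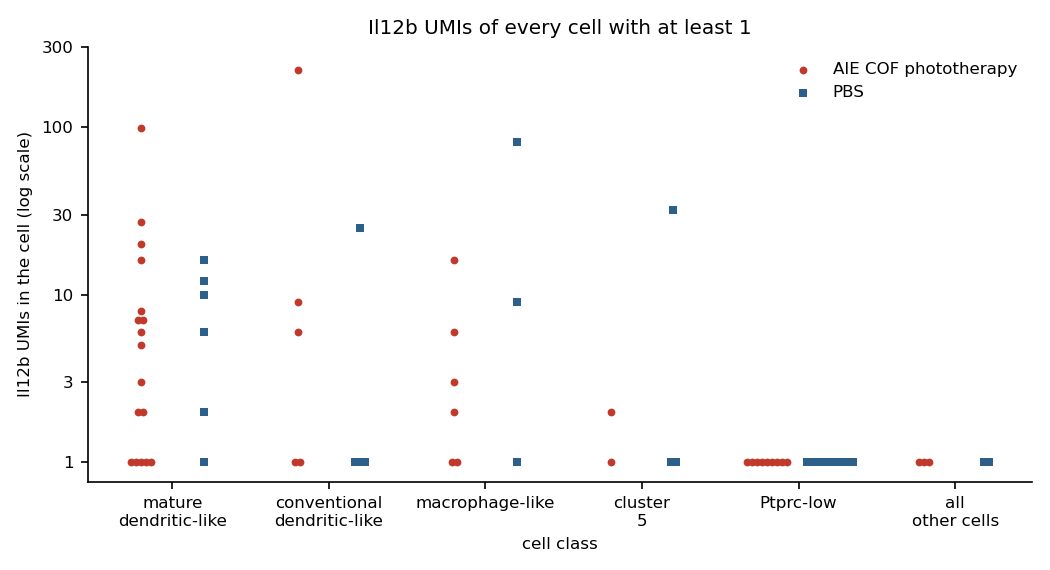
Every cell with Il12b, 1 point a cell, by class (x axis) and number of Il12b UMIs (y axis, log scale), circles for the AIE COF phototherapy library and squares for PBS. Mature-dendritic-like cells have more points (17 treated and 6 PBS) than conventional-dendritic-like cells (5 and 4), but the highest treated cell, at 219 UMIs, is among the latter. The highest PBS cells, with 81 and 32 UMIs, sit among macrophage-like cells and cluster 5, and the 9 treated and 10 PBS points of Ptprc-low cells all lie at 1.

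The dendritic-like classes differed between the libraries in other genes too, and the part of this in the Il12b values was not tested. Summed over 9 mature dendritic markers, conventional-dendritic-like cells stood at 774 CPM treated and 176 CPM PBS. In mature-dendritic-like cells the same sum was 2778 and 5679 CPM. All 10 T-cell markers had a UMI in the treated mature class (268 CPM in sum) and none of the 10 in the PBS class, and the 10 macrophage markers summed to 1127 and 111 CPM. Stat4, the transducer of IL-12 signals, was at 489 CPM treated and 1194 CPM PBS in mature-dendritic-like cells and at 134 and 47.1 CPM in conventional-dendritic-like cells.

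Il12a, the p35 gene that completes IL-12 (chromosome 3, 68690644 to 68698547, plus strand), was hardly seen beside Il12b at this depth. A single cell of the 42 treated Il12b cells had a UMI of it and none of the 28 PBS cells did. No Il12b cell had a UMI of Il23a, the partner of p40 in IL-23. Most Il12a UMIs lay elsewhere. B-like cells held 17 of 32 treated and 6 of 30 PBS UMIs, a log2 ratio of their levels of 0.07 (-1.34 to 1.70), and Ptprc-low cells held 11 and 19. These counts are too small to place p35 in the p40 cells or to show that it was missing from them.

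Il12rb1, the receptor chain shared with the IL-23 receptor (chromosome 8, 70808449 to 70821424, plus strand), lay mainly outside the lymphocytes. Ptprc-low cells held 2973 of 3459 treated UMIs (85.9%) and 4542 of 5375 PBS UMIs (84.5%), whereas all T and NK cells together held 24 and 30. In Ptprc-low cells Il12rb1 stood at 37.6 CPM (36.3 to 39.0) and 43.3 CPM (42.0 to 44.6), and in T and NK cells at 7.32 CPM (4.69 to 10.9) and 11.8 CPM (7.95 to 16.8). The log2 ratio of the Ptprc-low class, -0.20, turned to 0.30 with each cell thinned to 1000 UMIs, so its direction depends on how cells are weighted. Within the 5 Ptprc-low clusters it ranged from 12.7 and 10.8 CPM in cluster 4, led by Cilp and H19, to 92.7 and 88.3 CPM in cluster 10, led by Dhdh and Gm40323. The treated library was lower in cluster 9 (log2 ratio -0.28, -0.42 to -0.13), and the intervals of the other 4 clusters included 0. Cluster 10 made up 559 PBS and 299 treated cells.

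The highest Il12rb1 level of any class was in a small unnamed cluster. Cluster 11 (262 treated and 335 PBS cells; medians of 1598 and 2359 UMIs), led by Zc3h7a, Atf2 and Itga9 and with Il12rb1 itself among its 10 leading genes, carried it at 464 CPM (413 to 520) and 404 CPM (369 to 441). With cells thinned to 1000 UMIs, the shares of the cluster with a UMI were 29.9% and 21.9%, against 34.0% and 31.9% unthinned and 0.128% and 0.990% of B-like cells. Mast3, the gene nearest to it upstream, was at 26.1 and 33.1 CPM in cluster 11 and at 7.42 and 8.68 CPM in Ptprc-low cells, a smaller difference between these groups of cells than that of Il12rb1. CD8-effector-like cells had Il12rb1 in 4 of 112 treated and 19 of 249 PBS cells, or 1.90% and 2.54% after thinning, and regulatory-T-like cells had 4 UMIs in each library. B-like cells were at 3.89 CPM (1.43 to 8.47) and 8.77 CPM (2.85 to 20.5), and both intervals overlap those of the T and NK cells.

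**Figure D3:**
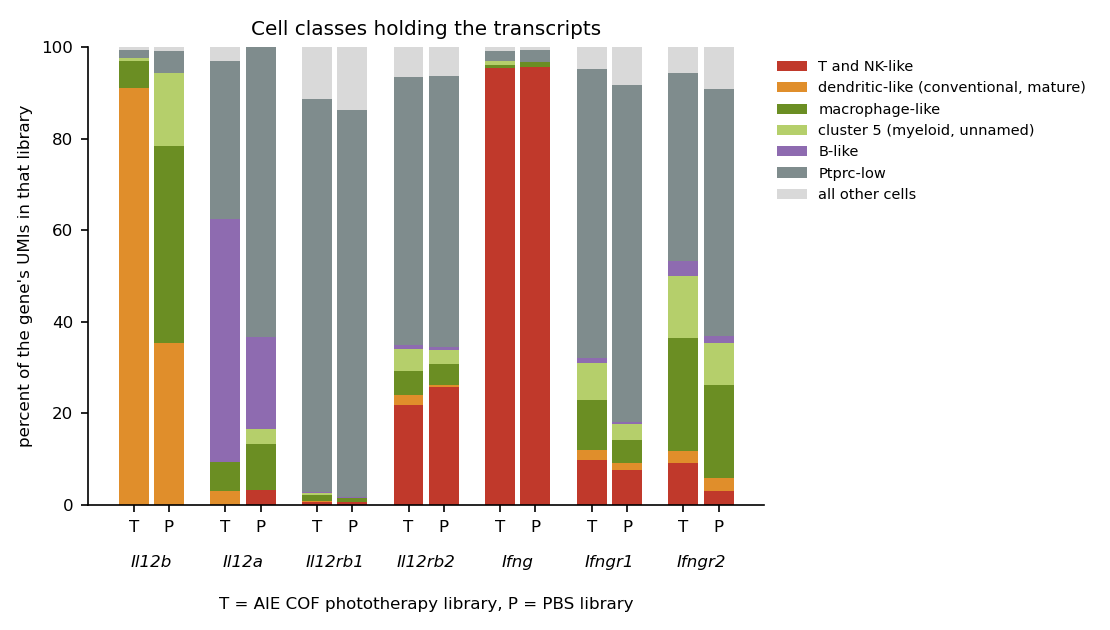
Share of each gene's UMIs held by classes of cells (stacked bars from 0 to 100%), with T for the AIE COF phototherapy library and P for PBS. T and NK-like cells hold 95.4% and 95.7% of Ifng, dendritic-like cells 90.9% and 35.4% of Il12b, and Ptprc-low cells 85.9% and 84.5% of Il12rb1.

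Il12rb2, the chain that gives a cell high-affinity IL-12 binding and recruits Stat4 (chromosome 6, 67291318 to 67376188, minus strand), was highest in NK-like and CD8-effector-like cells. It was at 89.5 CPM (52.1 to 143) treated and 157 CPM (112 to 213) PBS in NK-like cells, and at 86.6 CPM (61.3 to 119) and 139 CPM (119 to 163) in CD8-effector-like cells. T sub-cluster 3, an unnamed group led by Ly6c2, Ifngas1 and Ccl5, followed at 67.4 CPM (44.0 to 98.8) and 50.6 CPM (23.2 to 96.1). Naive or central-memory-like T cells had 33 and 6 UMIs, and B-like cells were at 2.59 and 8.77 CPM. The intervals of these first 3 classes overlap in the treated library, and in the PBS library T sub-cluster 3 lies below the other two.

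In the treated library Il12rb2 was lower in both of its highest classes. CD8-effector-like cells held 38 UMIs against 160 in PBS, at a log2 ratio of -0.69 (-1.24 to -0.17), and NK-like cells 17 and 40 (-0.81, -1.72 to 0.05, which includes 0). Both ratios are past 1.5-fold, as are 9.66% of all genes measured in CD8-effector-like and 10.1% of those in NK-like cells on the lower side. The cycling CD8-effector-like sub-cluster 7 gave -1.38 (-2.67 to -0.30) and the larger sub-cluster 2 gave -0.42 (-1.06 to 0.17), and with separate clustering of the libraries the class gave -0.30. Shares of cells with a UMI differed less: 22.3% and 30.1% unthinned and 8.57% and 11.9% thinned in CD8-effector-like cells, and 12.2% and 11.5% thinned in NK-like cells. Ptprc-low cells held 328 and 518 UMIs of the gene at 4.15 and 4.94 CPM, or 58.6% and 59.1% of the total, and T and NK cells held 21.8% and 25.8%. The last 6419 bases of Il12rb2 overlap Serbp1 on the opposite strand, and no source used here says whether the counting used strand, so Il12rb2 levels are uncertain. Both receptor chains were seen in the same cell in 1 of 112 treated and 10 of 249 PBS CD8-effector-like cells.

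Other genes of the IL-12 response were mixed. Of the 14 measured genes of IL-12 receptor signalling and the type 1 programme, 5 were at least 1.5-fold higher and 2 lower over all cells, where 8.61% and 4.94% of all genes were, with a median log2 ratio of 0.26 against 0.01 for all genes. Stat4 was at 0.98 (0.89 to 1.08), the chemokine receptor Cxcr3 at 0.82, the lineage factor Runx3 at 0.81 and the pore-forming Prf1 at -0.88 (-1.21 to -0.56). Within CD8-effector-like cells 2 of 11 measured genes of that list were higher and 2 lower, where 6.29% and 9.66% of all genes were, and the median was -0.24. In NK-like cells 4 of 10 measured genes of that list were at least 1.5-fold higher and none lower, where 9.48% and 10.1% of all genes were. Il18rap, Tbx21 and Il18r1 were among the 4. In CD8-effector-like cells Il18r1, the receptor of the partner cytokine IL-18, was at 205 and 131 CPM (0.65, 0.26 to 1.04), Prf1 at 68.4 and 129 CPM (-0.91, -1.53 to -0.34), and Stat4 at 417 and 367 CPM (0.19, -0.07 to 0.44). Of 14 regulators of Il12b production 3 were higher and none lower over all cells, where 8.61% and 4.94% of all genes were, with Tlr9 at 0.99 (59 and 37 UMIs), the NF-κB subunits Rel at 0.90 and Nfkb1 at 0.63, and Irf8 at 0.57. In conventional-dendritic-like cells 0 of 11 measured regulators were higher or lower, where 7.31% and 8.82% of all genes were. In macrophage-like cluster 2, 0 of 12 were higher and 2 lower, where 4.28% and 6.69% of all genes were. The 2 were Batf3 and Ticam1, named after their values were seen. In mature-dendritic-like cells, below the minimum of 50, Rel was at -0.33 (-0.64 to -0.02), Nfkb1 at -0.31 (-0.80 to 0.19) and Irf8 at -0.38 (-0.86 to 0.12). Also on that list, Nfkbiz was at -1.03 (-1.88 to -0.16; 29 and 22 UMIs) and Id2 at 0.24 (-0.14 to 0.64) there. Among the 6 relatives of IL-12, Il23r was at 1.20 (63 and 34 UMIs) and Il27ra at 0.61, while Il23a (0.40) and Il27 (-0.16) had intervals that included 0. Of 8 other type 1 cytokine genes 1 was higher, the T-cell ligand gene Cd40lg at 1.75 (1.44 to 2.06). Its product can license dendritic cells to make IL-12 through Cd40. That whole-tumour value came with T and NK cells at 19.2% of treated and 9.96% of PBS cells. Cd40, on the list of regulators, was at 61.7 and 250 CPM in mature-dendritic-like cells (-2.02, -3.20 to -0.88), on 12 and 18 UMIs. Any link of Cd40lg to the Il12b values was not tested.

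Ifng (chromosome 10, 118441046 to 118445892, plus strand) came almost wholly from T and NK cells. These held 373 of 391 treated UMIs (95.4%) and 573 of 599 PBS UMIs (95.7%). CD8-effector-like cells, which carried Cd8a in 85.7% and 85.1% of cells, held 267 and 481 of these UMIs, that is 68.3% and 80.3%, though 43.7% of the treated UMIs when the treated cells were clustered separately. Ptprc-low cells had 9 and 16 UMIs, 1 to a cell and none after thinning, and B-like cells had none. In the treated library the order of levels was 609 CPM (538 to 686) in CD8-effector-like cells, 190 CPM (133 to 262) in NK-like cells, and 70.3, 63.6 and 62.2 CPM in follicular-helper-like T cells, the unnamed cycling T sub-cluster 8 and T sub-cluster 3, whose intervals overlap. In the PBS library the order was 419 CPM (382 to 458) in CD8-effector-like, 260 CPM (161 to 397) in follicular-helper-like and 180 CPM (132 to 240) in NK-like cells, the last pair overlapping. Naive or central-memory-like T cells had 12.7 and 10.4 CPM.

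Per cell of its main source, Ifng was higher in the treated library, and there were fewer such cells. The treated library held 112 CD8-effector-like cells and the PBS library 249. Ifng had a UMI in 64 and 144 of them (57.1% and 57.8%), and in 38.1% and 27.1% after thinning to 1000 UMIs, where median depths were 3468 and 3927 UMIs. Positive cells held a median of 3 UMIs in the treated and 2 in the PBS library, with highest values of 22 and 18. The log2 ratio of the class was 0.54 (0.32 to 0.76), 0.49 without the shared barcodes and 0.57 with separate clustering of the libraries. Sub-cluster 2 gave 0.30 (0.04 to 0.56; 619 and 501 CPM) and the cycling sub-cluster 7 gave 1.25 (0.81 to 1.69; 589 and 247 CPM). The latter ratio rests on 22 cells of the treated library and 44 of the PBS library, below the minimum of 50. NK-like cells were level at 190 and 180 CPM (0.07, -0.60 to 0.74), and T sub-cluster 3 had -0.44 (-1.43 to 0.60). Follicular-helper-like T cells were lower, with 11 UMIs in 87 treated and 21 in 38 PBS cells, a class under the minimum of 50.

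Summed over all T and NK cells the direction turned. Ifng there was at 114 CPM (103 to 126) treated and 225 CPM (207 to 244) PBS, a log2 ratio of -0.98 (-1.18 to -0.79), with 1024 treated and 240 PBS naive or central-memory-like cells in that sum. The CD8-effector-like classes of the libraries also differed in other transcripts, whose part in the Ifng values was not tested. The T-cell receptor gene Trbc1 was seen in 27.7% and 64.7% of their cells, Pdcd1, a checkpoint receptor, in 50.9% and 65.5%, and Gzmb, a granzyme, in 54.5% and 69.1%. The 10 T-cell markers summed to 6789 and 7002 CPM and the 10 macrophage markers to 116 and 104 CPM.

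CD8-effector-like cells with Ifng more often carried Tbx21 and Ccl4 than those without, while Stat4 was near level. Tbx21, the lineage factor that IL-12 signalling sustains, had a UMI in 62.5% of Ifng-positive and 33.3% of other treated cells, and in 66.7% and 53.3% of PBS cells. The chemokine gene Ccl4 was seen in 84.4% and 47.9% of treated and in 83.3% and 65.7% of PBS cells. Il12rb2 was seen in 16 of 64 against 9 of 48 treated cells and in 52 of 144 against 23 of 105 PBS cells, and Stat4 in 64.1% against 58.3% and in 61.8% against 61.9%. Median depths were 3886 UMIs in positive and 3003 in other treated cells, and 4313.5 and 3629 in PBS cells, so depth moves with these shares. Across 30 combinations of class and library, each class with at least 50 cells in both, the genes whose log2(CPM + 1) followed that of Ifng most closely were Ctsw (Pearson r 0.955), Fasl (0.947), Nkg7 (0.943), Gm14029 (0.937) and Ctla2a (0.936), and those closest to Il12b were Gm36486 (0.861), Mgl2 (0.839), Adam23 (0.835), Ffar4 (0.832) and Zfp366 (0.831). These points share libraries and depth, and mature-dendritic-like cells were too few to be among them.

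**Figure D4:**
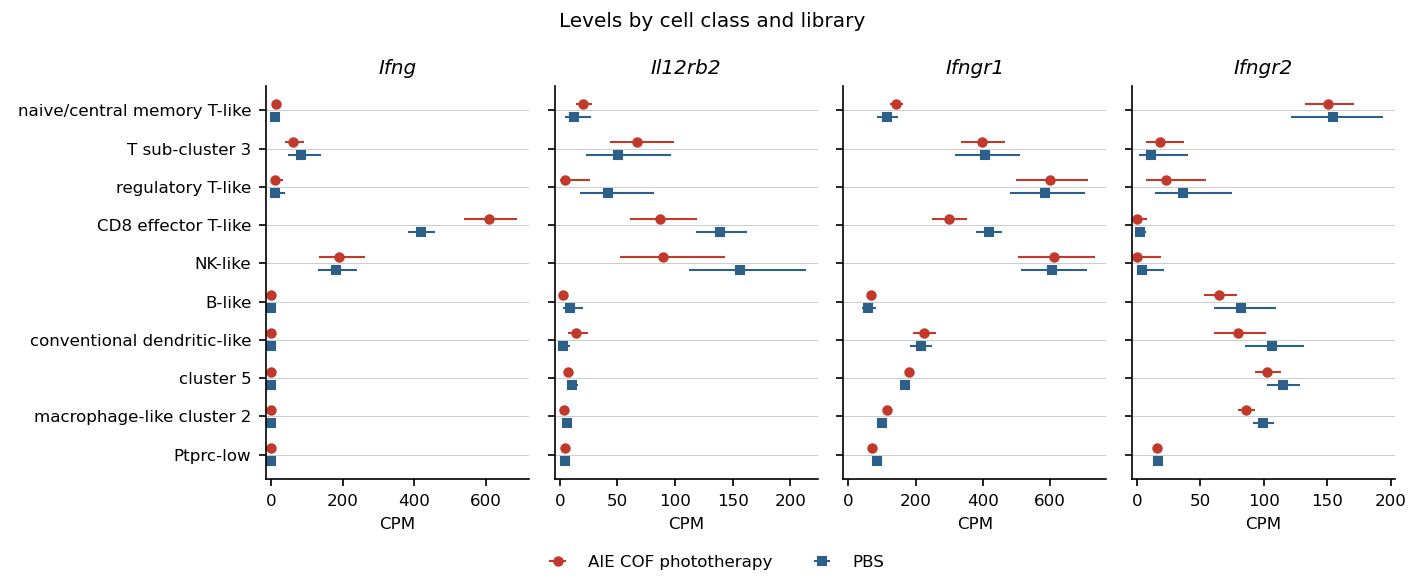
CPM of Ifng, Il12rb2, Ifngr1 and Ifngr2 (x axes, linear) in 10 classes of cells, circles for AIE COF phototherapy and squares for PBS, with exact 95% Poisson intervals. Ifngr1 is high and Ifngr2 near 0 in CD8-effector-like and NK-like cells, while naive or central-memory-like T cells have the highest Ifngr2, at 151 and 154 CPM.

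The chains of the IFN-γ receptor had opposite patterns among T and NK cells. Ifngr1, the ligand-binding chain (chromosome 10, 19591949 to 19610229, plus strand), was at 611 and 607 CPM in NK-like cells, 599 and 584 CPM in regulatory-T-like cells, 397 and 405 CPM in T sub-cluster 3 and 299 and 417 CPM in CD8-effector-like cells. Naive or central-memory-like T cells were lower, at 143 CPM (125 to 163) and 115 CPM (86.4 to 149). Ifngr2, the signal-transducing chain (chromosome 16, 91547072 to 91565623, plus strand), ran the other way. It was at 151 CPM (133 to 171) and 154 CPM (121 to 194) in naive or central-memory-like T cells, at 23.2 and 36.5 CPM in regulatory-T-like cells and at 18.1 and 11.3 CPM in T sub-cluster 3.

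In CD8-effector-like and NK-like cells Ifngr2 was all but undetected. It had 0 UMIs in 112 treated and 3 in 249 PBS CD8-effector-like cells, and 0 in 88 treated and 1 in 84 PBS NK-like cells. Thinned to 1000 UMIs, 0 of 105 treated CD8-effector-like cells allows a share of up to 2.86% with a UMI at that depth, which limits detection and not expression. In naive or central-memory-like T cells, which are shallower at a median of 1495 and 1849 UMIs, the thinned shares were 13.6% and 12.3%. At equal depth, then, the cells that held most Ifng had fewer Ifngr2 UMIs than naive or central-memory-like cells. Before thinning, both chains were seen together in 0 of 112 treated and 3 of 249 PBS CD8-effector-like cells. The unthinned shares were 33.0% and 26.0% in macrophage-like cluster 2, which is deeper, at medians of 9259.5 and 7507 UMIs. Thinned to 1000 UMIs, that cluster showed the pair in 8 cells out of 816 (treated) and 5 out of 626 (PBS). The thinned CD8-effector-like counts were 0 out of 105 and 0 out of 236. These thinned counts are too small to tell the classes apart.

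Outside the lymphocytes both receptor chains were widespread. Ptprc-low cells held 63.1% of treated and 73.7% of PBS Ifngr1 UMIs and 41.1% and 54.0% of Ifngr2 UMIs. Ifngr1 was lower in the treated library in each of the 5 Ptprc-low clusters, with log2 ratios between -0.38 and -0.18 and every interval below 0, and over the class at 70.3 CPM (68.5 to 72.2) and 85.4 CPM (83.6 to 87.2). Ifngr2 was at 15.7 and 16.5 CPM there, with cluster values on both sides of 0. Macrophage-like cluster 2 went the other way for Ifngr1, at 114 CPM (107 to 121) and 99.0 CPM (90.8 to 108), and had Ifngr2 at 86.2 and 99.7 CPM (log2 ratio -0.21, -0.37 to -0.05). Cluster 5 had Ifngr1 at 181 and 168 CPM and Ifngr2 at 103 and 115 CPM, conventional-dendritic-like cells had 226 and 216 CPM and 79.4 and 107 CPM, and B-like cells 68.1 and 57.9 CPM and 64.9 and 82.5 CPM, with ratio intervals that include 0 in each. In CD8-effector-like cells Ifngr1 was lower in the treated library, with 131 and 479 UMIs (-0.48, -0.77 to -0.20), and in 21.9% against 34.7% of thinned cells. The higher whole-tumour Ifngr2 of the treated library stood beside a larger share of that gene in naive or central-memory-like T cells, 249 of 3015 against 74 of 3217 UMIs, and in myeloid cells, 41.1% against 32.5%.

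Of the 10 genes of IFN-γ receptor signalling, 1 was at least 1.5-fold higher and none lower over all cells, where 8.61% and 4.94% of all genes were. It was the feedback inhibitor Socs3 at a log2 ratio of 0.69, followed by Jak1 (0.32), Jak2 (0.32) and Ptpn1 (0.30). Among the 10 brakes on type 1 responses 2 were higher, Prdm1 (0.85) and Il10ra (0.77), and none lower. Set against the same shares, of the 5 measured type I interferon genes none passed 1.5-fold. Of 12 immediate early genes that respond to tissue dissociation 2 were higher and 1 lower, with Nr4a1 at 0.98, Dusp1 at 0.92 and Hspa1b at -1.73.

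Genes induced by IFN-γ did not move as a group. Of 27 listed, 26 were counted and 21 measured over all cells. Of these 3 were at least 1.5-fold higher (Serping1, H2-Aa and Cxcl9) and 2 lower (Nos2 and Ubd), where 8.61% and 4.94% of all genes were. The median log2 ratio was -0.10, against 0.01 for all genes. Class II genes moved differently from class to class. H2-Aa, a class II antigen-presenting chain, was at 532 and 314 CPM over all cells (0.76, 0.74 to 0.78), but at 2371 and 3377 CPM in macrophage-like cluster 2 (-0.51, -0.54 to -0.48) and level in B-like cells (0.03, -0.04 to 0.09). The class II chaperone Cd74 had -0.92 in macrophage-like cluster 2 and 0.80 in Ptprc-low cells, where H2-Aa was at 26.1 and 13.7 CPM. H2-Aa was no lower in naive or central-memory-like T cells, which should lack class II, at 52.2 CPM (41.7 to 64.4) and 29.2 CPM (16.0 to 49.0). It had a UMI in 7.91% and 5.83% of those T cells, at median depths of 1495 and 1849 UMIs, and in 1327 of 2595 treated and 1070 of 3061 PBS Ptprc-low cells, at 29184 and 32938 UMIs. Whether the class II values of Ptprc-low and T cells are background or a difference in these cells was not tested. In Ptprc-low cells the 10 T-cell markers, all detected, summed to 12.8 and 7.81 CPM and the 10 macrophage markers, all detected, to 70.0 and 51.9 CPM. The genes of single classes in this paragraph and the next were chosen after their values had been seen.

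By class, the counts of IFN-γ-induced genes differed in direction. In macrophage-like cluster 2, 0 of 15 measured genes were higher and 3 lower (Gbp5, H2-Ab1 and Cd74), where 4.28% and 6.69% of all genes were. With the low-RNA macrophage-like cluster 8 added, 0 of 16 were higher and 4 lower, the same 3 and Ciita, where 3.97% and 8.27% of all genes were. Cluster 5 had 1 higher of 15, Cxcl9 at 299 and 167 CPM (log2 ratio 0.84), and none lower, where 4.25% and 5.79% of all genes were. Conventional-dendritic-like cells had 3 higher of 12, Cxcl9, Cd274 and Iigp1, and none lower, where 7.31% and 8.82% of all genes were. Their Cxcl9 went from 102 to 486 CPM between PBS and treated (2.26, 1.91 to 2.62), but 3 cells held 72.8% of the treated UMIs, and 23.1% of treated and 15.7% of PBS cells had a UMI. Ptprc-low cells had 3 higher, all of class II and no higher in CPM than in naive or central-memory-like T cells, and 3 lower (Nos2, Ubd and Irgm2) of 19, where 4.33% and 5.22% of all genes were. Naive or central-memory-like T cells had 4 higher of 11, Irgm2, Iigp1, H2-Aa and H2-Ab1, each on at most 95 treated and 17 PBS UMIs, and none lower, where 8.22% and 5.17% of all genes were. B-like cells had 1 higher of 8, Cd274, and none lower, where 7.44% and 4.34% of all genes were. CD8-effector-like cells had 2 higher of 8, H2-Aa on 25 treated and 34 PBS UMIs and Cd74 on 36 and 62, and none lower, where 6.29% and 9.66% of all genes were. NK-like cells had only 2 measured genes, of which Cd74 was lower on 18 and 49 UMIs. Guanylate-binding Gbp2 was at 180 and 213 CPM in Ptprc-low cells (-0.24, -0.27 to -0.21), and the nitric oxide synthase Nos2 at 3.46 and 7.84 CPM (-1.18, -1.38 to -0.98).

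**Figure D5:**
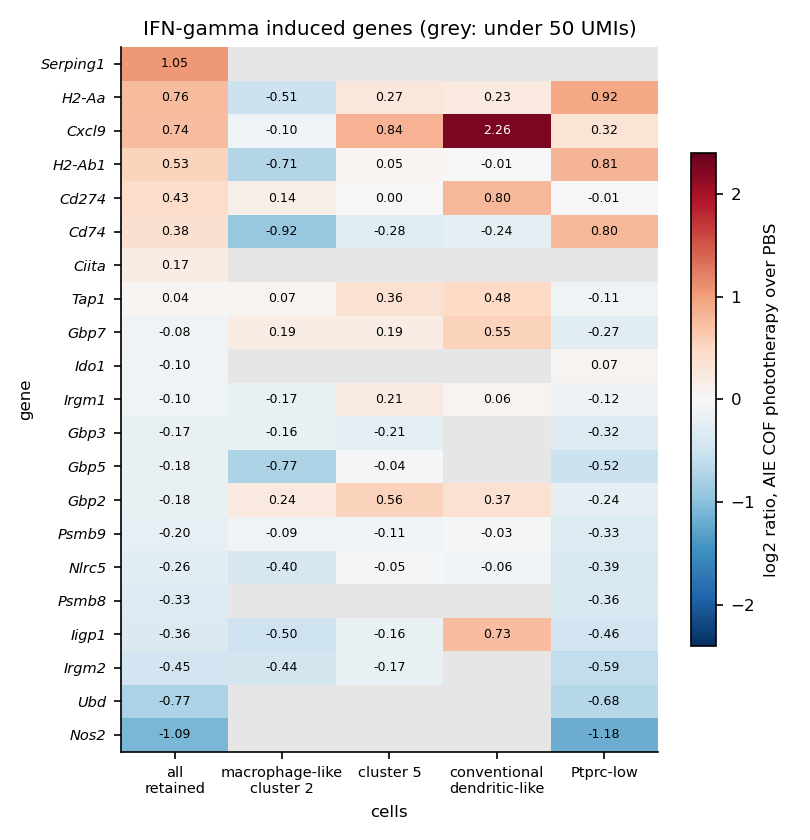
Log2 ratio, AIE COF phototherapy over PBS, of 21 IFN-γ-induced genes (rows) over all retained cells and in 4 classes (columns), red for higher and blue for lower in the treated library, grey where fewer than 50 UMIs were counted. H2-Aa, H2-Ab1 and Cd74 are red over all cells and in Ptprc-low cells but blue in macrophage-like cluster 2, and Cxcl9 is darkest, at 2.26, in conventional-dendritic-like cells.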

How the data were processed

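For each group the authors deposited 1 matrix of raw UMI counts without normalization. STAR and mm10 are named in the submitters' processing notes, and no source used here names the counting program, the annotation or the strand setting. Cells with at least 200 genes and at most 20% mitochondrial UMIs were kept, and 694 treated and 569 PBS barcodes with the highest Scrublet doublet scores (scanpy 1.11.5; 0.8% per 1000 barcodes) were removed. The deposited barcodes held 115576457 treated and 145045294 PBS UMIs. Leiden clustering (leidenalg 0.10.2, resolution 1, 2000 variable genes without the 7 described here, 30 components, 15 neighbours) used both libraries jointly; T and NK cells were clustered again. A name needed over 50% of a type's markers. That rule, the Ptprc-low class (under 100 CPM of Ptprc, median of 10000 UMIs or more) and the T subgroups were settled with clusters in view, and 1 sub-cluster that met innate lymphoid markers lost that name because it met T-cell markers. Members and gene lists were chosen with earlier results of these data known. Listed genes counted as measured at 50 UMIs over both libraries. Named are the 7 genes, up to 4 genes a list with the largest whole-tumour ratios, the 5 genes most like Ifng and Il12b, and markers; some listed genes are not reported here. Cells were thinned to 1000 UMIs for shares, leaving out 1155 treated and 809 PBS shallower cells. Intervals were tested on simulated data. Positions come from GENCODE M21 on GRCm38, promoters from RefSeq on GRCm38.p6; 6 of the 7 genes matched a promoter, and Il12rb1 did not. Alternatives covered filters, doublets, thinning, scaling, clustering and single high cells; the last were chosen after seeing the data.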

Additional observations from a re-analysis of the deposited data

How the results depend on the processing

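Each library stands alone, so the spread between tumours is unknown and the intervals understate the error, most of all for Il12b, whose UMIs lie in few cells. No paired analysis was possible because each group has 1 library. Under the alternatives, 115 values of the main ratios stayed within the counting interval and 12 did not. Of the other values checked, 237 stayed the same, 52 moved and 2 reversed, the last without the treated cell with most UMIs of the gene. Il12b over all cells gave 1.51, but 1.25 without the 3 highest cells of each library, 0.65 without the highest treated cell and 2.21 without the highest PBS cell; without the highest treated cell its ratio turned to -0.68 in conventional-dendritic-like and -0.19 in mature-dendritic-like cells. Thinning to 1000 UMIs weights cells equally and left fewer counts: it moved the whole-tumour ratio of Il12rb1 from -0.32 to -0.22 (-0.24 over all deposited barcodes), of Il12rb2 from -0.33 to -0.58 and of Ifngr2 from 0.22 to 0.32. In Ptprc-low cells it moved Il12rb1 from -0.20 to 0.30, a change of sign, and Ifngr1 from -0.28 to -0.62, where the mean of each cell's CPM gave -0.080 and -0.38. Ifngr2 in macrophage-like cells went from -0.26 to -0.46. The cause of these shifts was not tested. Ifng in CD8-effector-like cells stayed between 0.46 and 0.59 under the 10 alternatives run for it. With a fold of 2 in place of 1.5, none of the 3 regulators of Il12b production counted as higher.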
